A study of Mus musculus with 35 samples.

Results

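The 9 genes described here carry out the synthesis and breakdown of glycogen, the stored form of glucose. They are Gys1, Gyg, Gbe1, Ugp2, Pygb, Pygm, Ppp1r3c, Ppp1r3d and Epm2a, chosen by name for their role in this pathway, out of 54119 genes with a value. Each was given the sum of the values of its transcripts in each of 35 libraries. All 9 passed the filter on low counts in every comparison.

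The libraries hold RNA of cells sorted from the brain of male C57BL/6JRj mice. For 4 months from an age of 8 to 9 weeks the mice had either standard chow (SC) or HFHS, a diet high in fat and sugar (58% per the labels). Each replicate pooled tissue of 2 animals. The groups held 6 libraries of hypothalamus on SC, 5 of hypothalamus on HFHS, 5 of hippocampus on SC, 7 of hippocampus on HFHS, 6 of cortex on SC and 6 of cortex on HFHS. Cells were taken with magnetic beads against ACSA2, a surface antigen of astrocytes that Atp1b2 encodes. MS columns were used for both smaller regions, and LS columns with larger volumes of reagents for cortex, so that column and region cannot be told apart in any comparison with cortex. The comparisons ask how the RNA of these cells differed between regions, and whether the diet changed it within a region.

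In the brain, glycogen is stored mainly in astrocytes, which can break it down during intense neuronal activity or a shortage of glucose. Synthesis starts from UDP-glucose, made by the pyrophosphorylase that Ugp2 encodes. Glycogenin (Gyg) lays down the primer, glycogen synthase (Gys1) lengthens the chains and the branching enzyme (Gbe1) adds side chains. The phosphorylases release glucose 1-phosphate from the chain ends: Pygb encodes the brain form and Pygm the form named for muscle. Ppp1r3c, also called PTG, and Ppp1r3d encode subunits that bring protein phosphatase 1 to glycogen, where it activates the synthase and inactivates phosphorylase. Epm2a encodes laforin, a glycogen phosphatase that is mutated in Lafora disease.

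The sequences upstream of the start sites are shown for Ugp2 and Ppp1r3c, the members lower than cortex in all 4 comparisons below, and for Pygm, whose share among the phosphorylases is described further down. They come from RefSeq, build GRCm38.p6, are written 5′ to 3′ on the strand of the gene, end at a RefSeq start or upstream of it, and hold no base of an exon that GENCODE gives for the gene. Both start sites of Ugp2 are shown, since their transcripts are described apart. Capitals mark matches, on either strand, to the E-box CACGTG, the GC box GGGCGG and the CCAAT box.
Ugp2, upstream start, chr11:21371268-21371517, minus strand: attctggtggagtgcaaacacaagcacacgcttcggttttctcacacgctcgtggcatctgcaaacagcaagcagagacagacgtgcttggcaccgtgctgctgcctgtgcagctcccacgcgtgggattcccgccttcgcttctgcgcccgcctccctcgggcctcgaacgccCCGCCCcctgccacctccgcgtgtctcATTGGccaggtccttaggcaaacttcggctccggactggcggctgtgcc
Ugp2, downstream start, chr11:21370630-21370879, minus strand: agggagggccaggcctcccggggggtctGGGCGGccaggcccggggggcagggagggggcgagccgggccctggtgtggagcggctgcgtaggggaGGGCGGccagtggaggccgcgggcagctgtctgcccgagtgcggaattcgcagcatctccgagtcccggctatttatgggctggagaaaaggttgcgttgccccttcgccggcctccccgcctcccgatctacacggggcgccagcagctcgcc
Ppp1r3c, chr19:36736654-36736854, minus strand: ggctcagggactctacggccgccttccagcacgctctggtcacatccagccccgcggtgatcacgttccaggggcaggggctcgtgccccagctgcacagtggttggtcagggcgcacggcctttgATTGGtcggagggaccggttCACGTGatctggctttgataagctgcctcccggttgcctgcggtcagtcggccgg
Pygm, chr19:6384158-6384398, plus strand: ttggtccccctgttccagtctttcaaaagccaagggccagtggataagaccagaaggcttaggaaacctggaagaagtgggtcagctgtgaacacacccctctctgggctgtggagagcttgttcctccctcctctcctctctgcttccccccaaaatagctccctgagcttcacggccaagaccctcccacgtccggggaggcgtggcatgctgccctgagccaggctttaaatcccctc

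The window of Ppp1r3c held 1 E-box and 1 CCAAT box, read on the minus strand as ATTGG. The upstream window of Ugp2 held 1 GC box, read as CCGCCC, and 1 CCAAT box, and its downstream window held 2 GC boxes. None of these motifs, nor the cAMP response element TGACGTCA or the TATA box TATAAA, was in the window of Pygm. Among 32851 mouse promoters read over 250 bases, 6.02% held the E-box, 32.7% the GC box, 33.8% the CCAAT box, 12.4% the TATA box and 1.55% the cAMP response element. The windows printed here hold 250 bases each for Ugp2, 201 for Ppp1r3c and 241 for Pygm, so the last 2 are shorter than those behind these shares. A match is a description of the letters only.

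Totals per library lay between 47578560 and 65982495 estimated reads. The mean length of the transcripts behind the reads lay between 1922 and 2985 bases, and it was shortest in cortex SC 6 (1922), cortex HFHS 6 (2179) and hypothalamus SC 6 (2483), called the short libraries here. All 16 astrocyte markers had a median of at least 1 TPM, a level corrected for transcript length and library size, in each of the 6 groups. Their summed TPM ranged from 4096 to 6710.4 in hypothalamus SC, 5009 to 18618 in hypothalamus HFHS, 2297 to 11739 in hippocampus SC, 2134 to 12849 in hippocampus HFHS, 9749.8 to 27966.5 in cortex SC and 14609.5 to 25753 in cortex HFHS. The 8 oligodendrocyte markers, led by myelin genes, summed to 66609 to 93437.5 TPM in hypothalamus SC and to 6576 to 50179.6 TPM in cortex SC, above the astrocyte sum in every group median. Choroid plexus markers summed to between 135 and 33353.5 TPM in hippocampus SC. Ependymal markers summed to between 2644 and 4971 TPM in hypothalamus SC and between 26.7 and 138 TPM in cortex SC. In bulk RNA, fewer cells of a type and less RNA per cell cannot be told apart. The part of these differences in the region results below was not tested. The 5 markers of skeletal and heart muscle summed to at most 14.6 TPM in any library. Of these, 2 had a median of at least 1 TPM in each group, while the myosin Myh4 was under 0.1 TPM in every library.

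Ugp2 and Pygb had the highest levels of the 9 genes. Over the 35 libraries the mean TPM was 149 for Ugp2 and 146 for Pygb, followed by 63.3 for Pygm, 43.6 for Ppp1r3c, 36.5 for Gyg, 18.3 for Gbe1, 14.2 for Gys1, 5.84 for Ppp1r3d and 0.679 for Epm2a. Ugp2 ranked above Pygb by group mean in both hippocampus and both cortex groups, and Pygb above Ugp2 in both hypothalamus groups. Between libraries, Gyg varied least, with a coefficient of variation (SD over mean) of 15.5%, and Ppp1r3d most, with 82.8%. Epm2a was counted with only 19 to 170 reads per library, so that its values carry the largest counting error. Except for Gyg, each member had its highest group mean of TPM in a cortex group. By CPM, counts corrected for library size with TMM scaling factors but not for transcript length, all 9 did. For Gbe1 the TPM means were close, at 21.92 in cortex HFHS and 21.90 in hippocampus SC, and cortex SC was lower at 18.0.

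**Figure D1:**
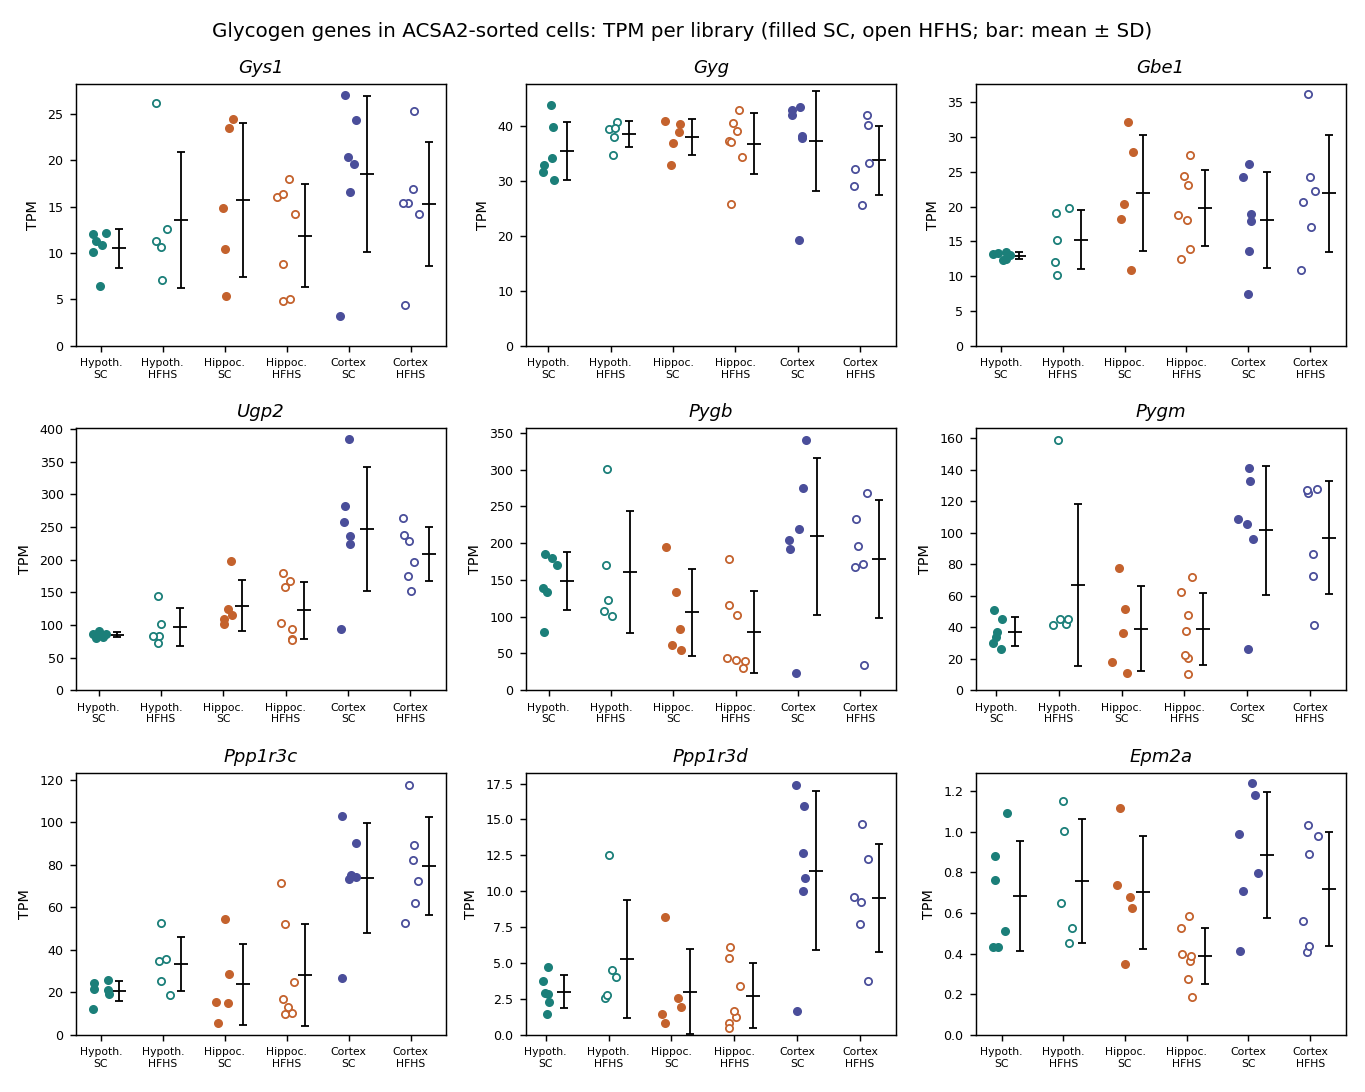
TPM (y axis, linear, from 0) of each of the 9 genes in every library, by region and diet; filled points are SC, open points HFHS, and bars give the group mean ± SD. The cortex groups stand highest for Ugp2, Ppp1r3c and Ppp1r3d, Gyg lies near 36.5 in all groups, and cortex SC 6 is the lowest cortex SC library in all 9 panels.

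On chow, hypothalamus cells had lower values than cortex cells for all 9 genes, and 8 of 9 passed the test as lower; 18.3% of all 21574 genes tested were called lower in that comparison. The exception was Pygb. Hippocampus cells on chow were lower than cortex cells for 6 of 9 (Gyg, Ugp2, Pygb, Pygm, Ppp1r3c and Ppp1r3d), against 15.3% of all genes. On HFHS, 3 of 9 were lower in hypothalamus than in cortex (Ugp2, Gbe1 and Ppp1r3c, against 9.21% of all genes) and 6 of 9 in hippocampus (Ugp2, Pygb, Pygm, Ppp1r3c, Ppp1r3d and Epm2a, against 10.8%). No member was called higher than cortex in any of the 4 comparisons, where 17.7% (hypothalamus, SC), 15.4% (hippocampus, SC), 14.6% (hypothalamus, HFHS) and 13.4% (hippocampus, HFHS) of all genes were. The median log2 fold change of the 9 genes was -1.28 for hypothalamus and -1.30 for hippocampus on SC, and -0.68 and -1.10 on HFHS; the medians over all genes tested were 0.06, 0.04, 0.01 and 0.05. Fold changes here and below are on TMM-scaled counts, not on TPM. Their sizes, and in some cases their direction, can differ from the TPM values beside them. On SC, mean TPM was above cortex in hippocampus for Gyg (37.9 against 37.2) and Gbe1 (21.9 against 18.0). On HFHS it was above cortex for Gyg in hypothalamus (38.5) and hippocampus (36.7, against 33.7), and for Epm2a in hypothalamus (0.757 against 0.718). For the other values, mean TPM was also lower than in cortex. Both comparisons with cortex on 1 diet use the same cortex libraries, so their values stand side by side and are not independent. In these comparisons the summed astrocyte markers were also higher in cortex, as given above, and the part of that in the member values was not tested. Divided by the astrocyte sum, none of the 9 genes had its highest group median in cortex, and these ratios are given further down. That sum had medians of 18353 and 18985 TPM in cortex SC and HFHS, against 3652 to 7462 TPM in the other groups. Any gene that differed less than this sum has a lower ratio in cortex, so the ratios cannot tell which cells the RNA came from.

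**Figure D2:**
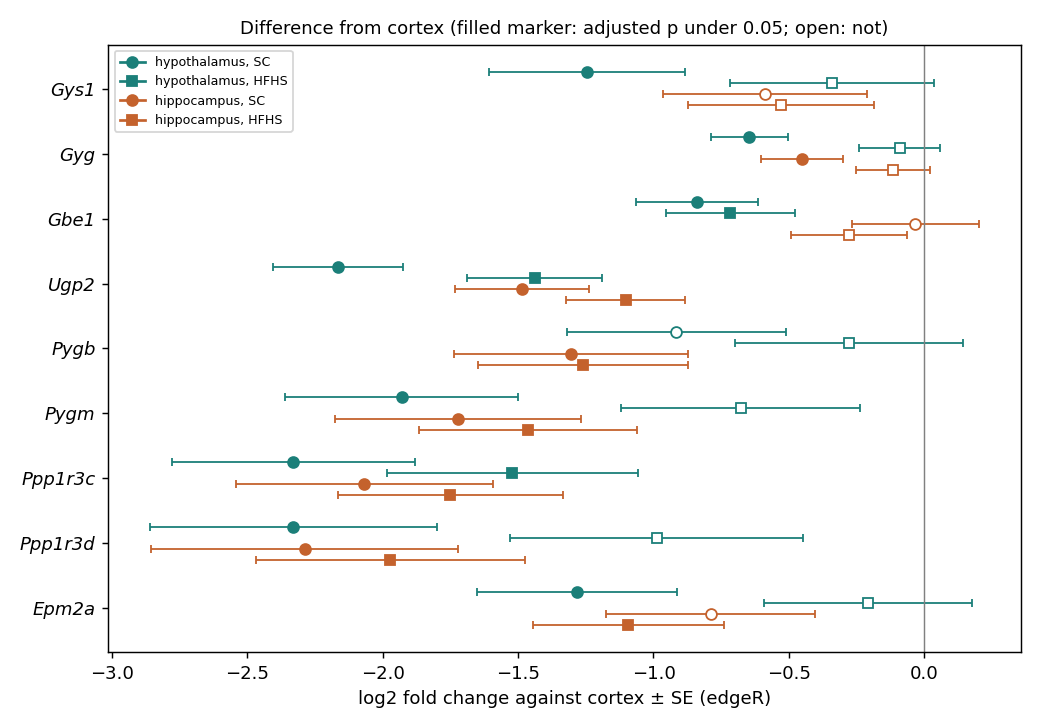
Log2 fold change against cortex (x axis) ± SE for each of the 9 genes, in hypothalamus and hippocampus on each diet; filled markers have an edgeR adjusted p under 0.05. All 36 values lie left of 0, from -2.33 for Ppp1r3d and Ppp1r3c in hypothalamus on SC to -0.03 for Gbe1 in hippocampus on SC.

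Ugp2, which supplies the UDP-glucose for the chains, showed the difference with the smallest adjusted p. Its TPM in cortex SC had a lowest value of 93.6, a median of 248 and a highest value of 386, against 80.6, 85.3 and 90.7 in hypothalamus SC. The 5 hippocampus SC libraries stood at 109, 198, 101, 124 and 116 TPM. All 6 hypothalamus libraries thus lay below every cortex library on SC, while the hippocampus libraries overlapped with cortex only through the low cortex SC 6. The fitted difference was -2.16 ± 0.24 (SE) on the log2 scale in hypothalamus, with an edgeR adjusted p of 1.47e-08. On TMM-scaled counts that is a 4.48-fold higher value in cortex, where mean TPM was 247 against 84.8 in hypothalamus. In hippocampus the fitted difference was -1.49 ± 0.25, with an adjusted p of 5.44e-05. On HFHS, Ugp2 had 82.3, 145, 72.0, 102 and 82.9 TPM in hypothalamus, and a lowest value of 152, a median of 213 and a highest value of 264 in cortex, without overlap. The hippocampus HFHS libraries ranged from 77.1 through a median of 103 to 179 TPM, and 4 of 7 lay below all cortex libraries. On HFHS the log2 fold changes were -1.44 ± 0.25 in hypothalamus (adjusted p = 4.03e-05) and -1.10 ± 0.22 in hippocampus (adjusted p = 4.08e-04).

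Gyg (chr3:20122084-20155317, minus strand, build GRCm38 here and below), the primer protein, was the least variable member, and its region difference depended on the scale. Mean TPM was 35.4 ± 5.28 (SD, n = 6) in hypothalamus SC, 37.9 ± 3.21 (n = 5) in hippocampus SC and 37.2 ± 9.10 (n = 6) in cortex SC, where the range was 19.3 to 43.4. The 3 groups overlapped on this scale. In CPM, which is TMM-scaled and not divided by length, the SC means were 50.8 for cortex, 38.0 for hippocampus and 33.6 for hypothalamus. How much of the change from TPM came from the TMM scaling and how much from length was not tested. The fitted log2 fold change on counts was -0.65 ± 0.14 in hypothalamus (adjusted p = 6.18e-04) and -0.45 ± 0.15 in hippocampus (adjusted p = 0.0220). The hippocampus call was lost without hippocampus SC 4 (adjusted p = 0.0733) or cortex SC 6 (adjusted p = 0.0539). On HFHS, Gyg differed from cortex by -0.09 in hypothalamus and -0.12 in hippocampus, with adjusted p of 0.721 and 0.591.

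Gys1 (chr7:45434844-45456619, plus strand), the synthase itself, was called lower than cortex only in hypothalamus on SC among the 4 comparisons. Its TPM ranged from 6.39 to 12.2 there, with a median of 11.1, and from 3.16 to 27.1 in cortex SC, with a median of 20.0. Cortex SC 6 was the lowest of both groups, and the other cortex libraries lay above all hypothalamus libraries. Its log2 fold change was -1.24 ± 0.36, with an adjusted p of 0.00737. In hippocampus SC the 5 values were 10.4, 14.9, 5.35, 23.5 and 24.5 TPM, and the difference from cortex was -0.59 ± 0.38 (adjusted p = 0.244). The highest values were those of replicates 4 and 5, where choroid plexus markers summed to 29710 and 33353.5 TPM. In replicate 3, the lowest, they summed to 135 TPM, and the part of those cells in the Gys1 level was not tested. Gys1 shares 310 exon bases with Ruvbl2 on the opposite strand, and the kit keeps no strand, so reads of that stretch cannot be told apart.

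Gbe1 (chr16:70313949-70569716, plus strand), the branching enzyme, was called lower in hypothalamus than in both other regions on SC, with overlap of the libraries. The 6 hypothalamus SC libraries were close together, with TPM from 12.3 to 13.4. In hippocampus SC the values were 18.2, 20.3, 10.9, 27.9 and 32.2, and in cortex SC the lowest, median and highest values were 7.44, 18.4 and 26.2. One library in each of the latter groups, hippocampus SC 3 and cortex SC 6, lay below all of the hypothalamus libraries. Gbe1 was lower in hypothalamus than in cortex by -0.84 ± 0.23 on the log2 scale (adjusted p = 0.00391), and the hippocampus difference from cortex was -0.03 ± 0.23 (adjusted p = 0.932). On HFHS, hypothalamus was again lower than cortex, at -0.72 ± 0.24 with an adjusted p of 0.0255. That call was lost without hypothalamus HFHS 1 (adjusted p = 0.0588), hypothalamus HFHS 3 (0.0763), cortex HFHS 2 (0.0619) or cortex HFHS 5 (0.0641). In hippocampus on SC, Gbe1 was highest in replicates 5 and 4, where the choroid plexus markers also summed highest (33353.5 and 29710.2 TPM), and lowest in replicate 3, where they summed to 135 TPM; the part of those cells in the Gbe1 level was not tested.

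Pygb (chr2:150786735-150831758, plus strand), the brain phosphorylase, was lower in hippocampus than in cortex on both diets. Its TPM was 55.0, 195, 61.6, 134 and 83.4 in hippocampus SC, against a lowest value of 23.5, a median of 212 and a highest value of 341 in cortex SC. The groups overlapped through the high hippocampus SC 2 and the low cortex SC 6. The log2 fold change was -1.30 ± 0.43 (adjusted p = 0.0212), and the call was lost without hippocampus SC 1 (adjusted p = 0.0636), hippocampus SC 3 (0.0634) or cortex SC 2 (0.0649). On HFHS the hippocampus difference was -1.26 ± 0.39 (adjusted p = 0.0163). Hypothalamus SC ranged from 79.7 to 186 TPM, and its difference from cortex, -0.92 ± 0.40, did not pass (adjusted p = 0.0744). Without cortex SC 6 that difference was -1.11 and passed, with an adjusted p of 0.0299.

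Pygm (chr19:6384399-6398459, plus strand), the second phosphorylase, was lower in hypothalamus on SC and in hippocampus on both diets. The lowest, median and highest TPM were 25.9, 107 and 141 in cortex SC and 26.2, 35.4 and 51.0 in hypothalamus SC. Hippocampus SC libraries stood at 18.0, 77.8, 11.2, 51.8 and 36.3 TPM. Apart from cortex SC 6, every cortex library on SC was above every library of the other regions. The log2 fold change was -1.93 ± 0.43 in hypothalamus (adjusted p = 6.40e-04) and -1.72 ± 0.45 in hippocampus (adjusted p = 0.00441). On HFHS it was -1.46 ± 0.40 in hippocampus (adjusted p = 0.00747). In hypothalamus on HFHS it was -0.68 ± 0.44 (adjusted p = 0.286), and without hypothalamus HFHS 2, whose Pygm level was 159 TPM, it was -1.36 with an adjusted p of 0.0192.

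Ppp1r3c (chr19:36731731-36736653, minus strand), the phosphatase subunit PTG, was called lower in all 4 comparisons with cortex, as was Ugp2. Its TPM had a lowest value of 26.8, a median of 74.7 and a highest value of 103 in cortex SC, against 12.0, 21.2 and 25.9 in hypothalamus SC. The hippocampus SC libraries stood at 5.33, 54.4, 14.8, 28.6 and 15.3 TPM. Hypothalamus and cortex did not overlap on SC, and 3 of 5 hippocampus libraries lay below all cortex libraries. Its log2 fold change was -2.33 ± 0.45 in hypothalamus (adjusted p = 1.15e-04) and -2.07 ± 0.47 in hippocampus (adjusted p = 0.00136). The hypothalamus value is 5.02-fold higher in cortex on TMM-scaled counts, where mean TPM was 73.7 in cortex and 20.6 in hypothalamus. On HFHS the values were 18.7, 52.6, 34.9, 25.1 and 35.6 TPM in hypothalamus, a range of 9.79 to 71.3 with a median of 16.6 in hippocampus, and a range of 52.4 to 118 with a median of 77.3 in cortex. The highest library of the hypothalamus (52.6) and of the hippocampus (71.3) reached into the cortex range, and the rest of both regions lay below it. The differences on HFHS were -1.52 ± 0.46 in hypothalamus (adjusted p = 0.0151) and -1.75 ± 0.42 in hippocampus (adjusted p = 0.00226).

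Ppp1r3d (chr2:178411206-178414472, minus strand), the other phosphatase subunit, was counted with 55 to 2248 reads per library. In cortex SC its TPM had a lowest value of 1.66, a median of 11.8 and a highest value of 17.4, against 1.43, 2.90 and 4.73 in hypothalamus SC and 0.845, 8.22, 1.46, 2.56 and 1.91 in hippocampus SC. Only cortex SC 6 reached down into the ranges of the other regions on SC. The log2 fold change was -2.33 ± 0.53 in hypothalamus (adjusted p = 8.12e-04) and -2.29 ± 0.57 in hippocampus (adjusted p = 0.00266). On HFHS the hippocampus difference was -1.97 ± 0.50 (adjusted p = 0.00366). The hypothalamus difference on HFHS was -0.99 ± 0.54 (adjusted p = 0.194), and without hypothalamus HFHS 2 it was -1.63 with an adjusted p of 0.0328.

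Epm2a (chr10:11343404-11459644, plus strand), which encodes laforin, had low levels in all groups. Mean TPM was 0.888 ± 0.311 (SD, n = 6) in cortex SC and 0.685 ± 0.272 (n = 6) in hypothalamus SC, and the ranges overlapped. The counts gave a log2 fold change of -1.28 ± 0.37 (adjusted p = 0.00672), which was -0.87 with an adjusted p of 0.0545 on length-scaled counts. In hypothalamus SC 6 a short non-coding transcript, Epm2a-202, held 89.3% of the TPM of the gene with only 4.49 estimated reads, which raises the TPM of that library but hardly its count. In hippocampus on HFHS, where TPM ranged from 0.185 to 0.584, the difference from cortex was -1.09 ± 0.35 (adjusted p = 0.0218). That call was lost without cortex HFHS 6 (adjusted p = 0.0560).

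Between hypothalamus and hippocampus, 1 of the 9 genes was called on SC and none on HFHS. On SC, Gbe1 alone of the 9 was called, lower in hypothalamus by -0.80 ± 0.23 (adjusted p = 0.0247), where 4.13% of all genes were called lower and 5.86% higher. The call was lost without hypothalamus SC 3 (adjusted p = 0.0553), hippocampus SC 4 (0.0673) or hippocampus SC 5 (0.103). Ugp2 in all 6 hypothalamus libraries lay below all 5 hippocampus libraries on SC, and its difference of -0.68 ± 0.24 had an adjusted p of 0.0658. That difference passed with DESeq2 (adjusted p = 0.0451) and without the 3 short libraries (0.0336). On HFHS edgeR called none of the 9 (4.24% of all genes were called higher and 2.18% lower), and DESeq2 called none either. An unadjusted p under 0.05 was reached by 2 of the 9, against 20.4% of all genes: Pygb, at 0.98 ± 0.40, and Epm2a, at 0.88 ± 0.37 on the log2 scale, were higher in value in hypothalamus, with adjusted p of 0.148 and 0.154. Ppp1r3d, at 0.98 ± 0.51, and Pygm, at 0.78 ± 0.42, also had values above 0. Without hippocampus HFHS 2 the value of Pygb was 1.30 and passed, with an adjusted p of 0.0422.

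Diet was the other question of the design, and edgeR called none of the 9 genes between HFHS and SC in any region. It called 0% of all genes too (hypothalamus 19272 tested, hippocampus 19036, cortex 17844). At an unadjusted p under 0.05 stood 4 of the 9 in hypothalamus, where 8.5% of all genes did, and 0 of the 9 in hippocampus and cortex, where 5.17% and 9.26% of all genes did. Calls over all genes by DESeq2 numbered 112 for hypothalamus, 13 for hippocampus and 442 for cortex, with no glycogen gene among them (in hypothalamus it gave an adjusted p for 8 of the 9).

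In hypothalamus all 9 values were above 0 on HFHS, with a median log2 fold change of 0.50 against -0.01 over all genes. Pygm had 41.1, 159, 42.4, 45.5 and 45.5 TPM on HFHS, and a lowest value of 26.2, a median of 35.4 and a highest value of 51.0 on SC. Replicate 2 stood far above the rest, and the other 4 HFHS libraries lay inside the SC range. The log2 fold change of Pygm was 1.06 ± 0.37 (adjusted p = 0.482). Ppp1r3c differed by 0.83 ± 0.28 (adjusted p = 0.482), Ppp1r3d by 0.98 ± 0.42 (adjusted p = 0.558) and Gyg by 0.27 ± 0.12 (adjusted p = 0.569). The other 5 members had values from 0.26 for Pygb to 0.65 for Epm2a.

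The hypothalamus HFHS replicate 2 was the highest of its group in 6 of the 9 genes, and its astrocyte markers summed to 18618 TPM, against at most 7988 in the other 4 libraries. Without it, the median of the 9 genes was 0.28, Pygb had a value of -0.14 and 8 of 9 stayed above 0. Pygm was then at 0.38 and Ppp1r3d at 0.34, and only Ppp1r3c, at 0.58 ± 0.25, had an unadjusted p under 0.05, with an adjusted p of 0.702. All 9 hypothalamus values were thus lower without this 1 library.

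In hippocampus, 4 of the 9 values were above 0 and 5 below on HFHS, with a median of -0.07 against 0.00 over all genes. The largest in size was that of Epm2a, -0.75 ± 0.36 (adjusted p = 0.876). Its TPM was 0.679, 0.740, 1.12, 0.626 and 0.346 on SC, and 0.185, 0.387 and 0.584 were the lowest, median and highest values on HFHS. The groups overlapped only through hippocampus SC 5. Ppp1r3c ranged from 5.33 to 54.4 TPM on SC and from 9.79 to 71.3 on HFHS, and its difference of 0.32 ± 0.59 was smaller than its error.

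In cortex, 7 of the 9 values were below 0 on HFHS, with a median of -0.30 against -0.02 over all genes. They ran from -0.39 ± 0.34 for Epm2a to 0.23 ± 0.25 for Gbe1, and the smallest adjusted p was 0.780, for Ugp2. Cortex SC 6 was the lowest of its group in all 9 genes and cortex HFHS 6 in 7 of 9. Without the short libraries the median was -0.33 and again none of the 9 was called, while 515 genes were called in all.

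**Figure D3:**
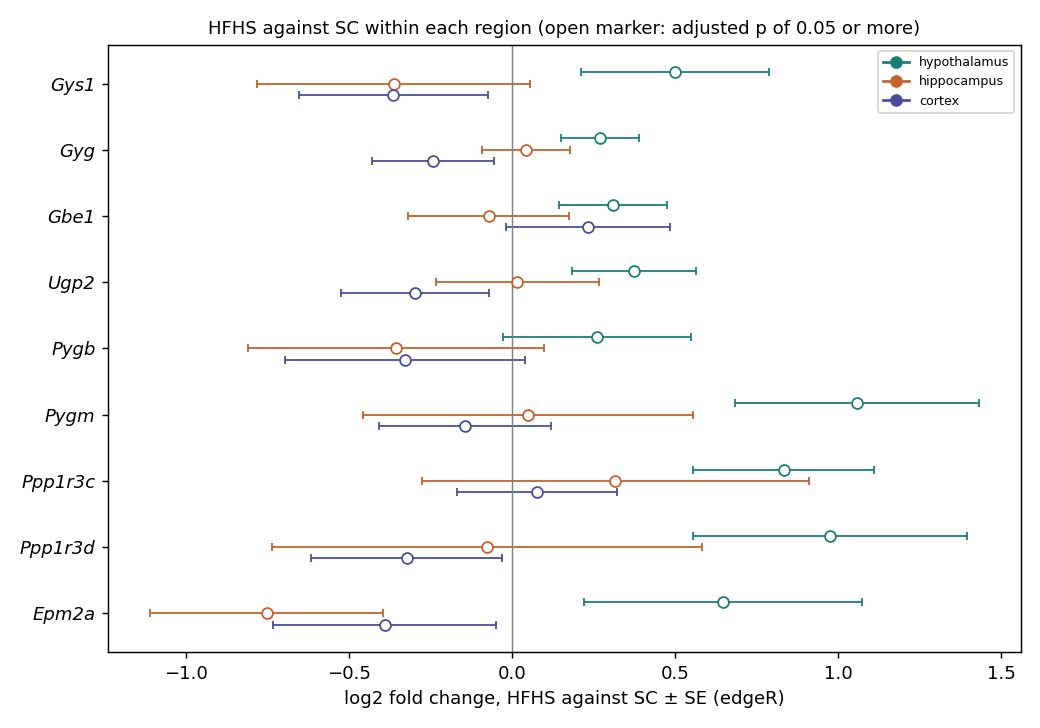
Log2 fold change of HFHS against SC (x axis) ± SE for each of the 9 genes in hypothalamus, hippocampus and cortex; open markers have an edgeR adjusted p of 0.05 or more, which holds for all 27 values. The hypothalamus values all lie right of 0, and the hippocampus and cortex values lie on both sides.

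Whether diet acted differently in 2 regions was tested directly, and none of the 9 genes passed; these contrasts share libraries with each other and with the comparisons above. edgeR called 0% of 21574 genes in each of the 3 contrasts. For hypothalamus against cortex all 9 values were above 0, with a median of 0.81 against 0.06 over all genes, and 4 of 9 had an unadjusted p under 0.05 (11.6% of all genes did). They were Pygm at 1.25 ± 0.60, Epm2a at 1.07 ± 0.53, Ugp2 at 0.73 ± 0.33 and Gyg at 0.56 ± 0.21, and the smallest adjusted p, that of Gyg, was 0.299. Without hypothalamus HFHS 2, Pygm stood at 0.57 and Ugp2 at 0.49. For hypothalamus against hippocampus 1 of 9 had an unadjusted p under 0.05, namely Epm2a at 1.38 ± 0.53, where 2.01% of all genes did. For hippocampus against cortex 0 of 9 did, where 9.3% of all genes did. DESeq2 called 121, 4 and 24 genes in these contrasts, and no glycogen gene.

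The makeup of the phosphorylases was described within each library, which needs no scaling between libraries. Pygm made up 19.8% ± 5.83 (SD, n = 6) of the summed TPM of Pygb, Pygm and the liver form Pygl in hypothalamus SC and 26.7% ± 5.25 (n = 5) in hypothalamus HFHS. It made up 24.0% ± 5.77 (n = 5) in hippocampus SC, 31.9% ± 7.83 (n = 7) in hippocampus HFHS, 35.1% ± 8.19 (n = 6) in cortex SC and 36.7% ± 8.35 (n = 6) in cortex HFHS. The highest shares, 51.1% and 52.5%, were those of the short libraries cortex SC 6 and cortex HFHS 6. Pygb was the larger part in every group mean, and Pygl held 2.02% in cortex SC against 5.11% in hypothalamus SC. The log2 ratio of Gys1 to the summed phosphorylases was -4.21 ± 0.23 in hypothalamus SC and -4.08 ± 0.17 in cortex SC, and -3.29 ± 0.74 in hippocampus SC, where replicates 5 and 1 stood highest. The HFHS means were -4.13, -4.20 and -3.32 for hypothalamus, cortex and hippocampus. In hippocampus SC replicates 1 to 5 the ratio was -2.88, -4.22, -3.87, -3.06 and -2.41. The choroid plexus markers in these libraries summed to 14291, 5611, 135, 29710 and 33353.5 TPM, and the part of those cells in the ratio was not tested.

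The 2 main transcripts of Ugp2 start 724 bases apart in the GENCODE annotation, and their shares differed between regions. The gene lies at chr11:21321138-21371201 on the minus strand. Ugp2-201 starts at its upstream end and Ugp2-202 at position 21370477. The 2 windows printed above end at the RefSeq starts 21371267 and 21370629, each upstream of the start that GENCODE gives. Ugp2-202 held 53.7% ± 3.70 (SD, n = 6) of the Ugp2 TPM in cortex SC, 33.6% ± 2.38 (n = 6) in hypothalamus SC and 34.6% ± 7.34 (n = 5) in hippocampus SC. The cortex SC libraries, from 49.8% to 60.2%, lay above all hypothalamus SC libraries (29.3% to 36.3%) and all hippocampus SC libraries (26.3% to 45.2%). On HFHS the shares were 50.2% ± 4.76 in cortex, 39.0% ± 4.46 in hypothalamus and 37.3% ± 6.74 in hippocampus, and their ranges overlapped. In TPM, Ugp2-201 had a mean of 116 in cortex SC and 56.1 in hypothalamus SC, and Ugp2-202 had 131 and 28.5. This pattern was chosen after its values were seen, rests on how Salmon divides reads between transcripts that share most exons, and was given no test.

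**Figure D4:**
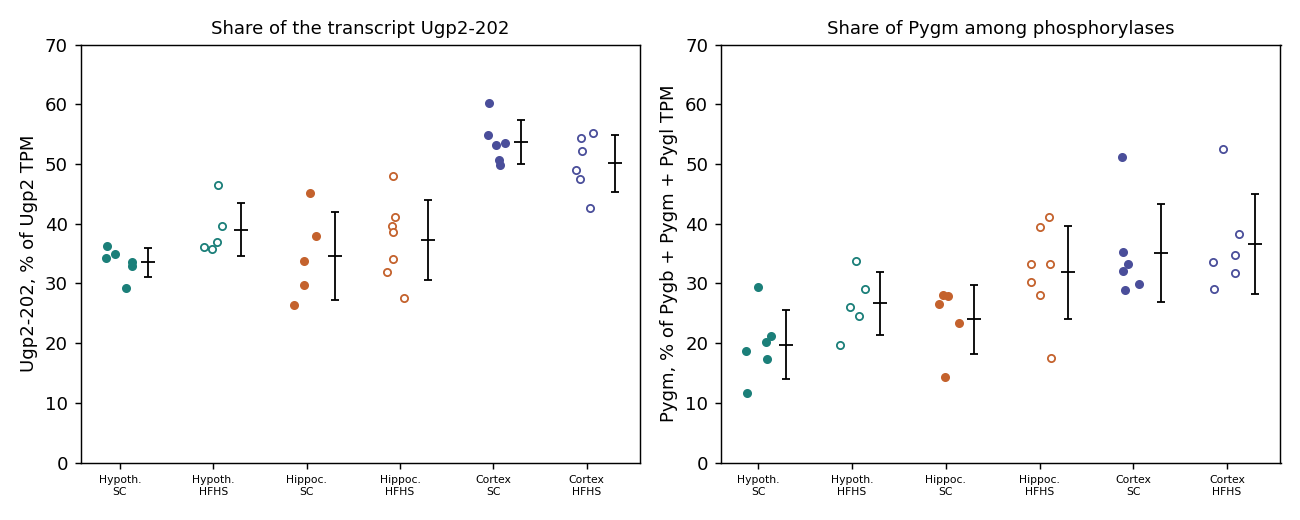
Left, share of the transcript Ugp2-202 in the TPM of Ugp2; right, share of Pygm in the summed TPM of the 3 phosphorylases (y axes in percent, from 0), per library, with filled points for SC, open points for HFHS and bars for mean ± SD. The cortex SC libraries lie at 49.8% to 60.2% on the left, above all SC libraries of the other regions; on the right the groups overlap.

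The other members used mostly 1 transcript. Ppp1r3c and Ppp1r3d have a single annotated transcript, and the main transcript held a mean of 98.8% of the TPM for Pygb, 95.4% for Pygm, 95.0% for Gys1, 89.7% for Gyg and 87.4% for Gbe1. The retained-intron transcript Gbe1-205 held 41.4% of the Gbe1 TPM in cortex SC 6 and 29.1% in cortex HFHS 6, the short libraries, against a mean of 2.54% over all libraries. The retained-intron transcript Pygm-203 held a mean of 6.65% ± 12.8 (SD) of the Pygm TPM in cortex SC and 6.98% ± 4.40 in hypothalamus SC.

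Of 25 other genes of the pathway, 23 were tested; the liver synthase Gys2 and the muscle subunit Ppp1r3a did not pass the filter. In hypothalamus against cortex on SC, 10 of the 23 were called lower and 3 higher, against 18.3% and 17.7% of all genes, and the median was -0.50 against 0.06 over all genes. Ppp1r3g, another subunit that brings the phosphatase to glycogen, had the largest difference: 2.20 ± 2.38 TPM (SD, n = 6) in hypothalamus SC against 61.6 ± 18.1 (n = 6) in cortex SC, a log2 fold change of -5.18 ± 0.72. Stbd1, a protein that binds glycogen and membranes, went the other way, with 8.23 ± 3.48 TPM in hypothalamus SC and 0.742 ± 0.770 in cortex SC, a log2 fold change of 3.27 ± 0.58. Pgm1, which converts glucose 1-phosphate to glucose 6-phosphate, was lower by -1.87 ± 0.37, and Phka2, a regulatory subunit of phosphorylase kinase, was higher by 1.70 ± 0.34. The groups of Ppp1r3g, Stbd1 and Phka2 did not overlap.

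In hippocampus against cortex on SC, 6 of the 23 were called lower and 4 higher, where 15.3% and 15.4% of all genes were. Ppp1r3g was lower by -3.09 ± 0.70 and Pgm1 by -2.05 ± 0.39, and Ppp1r3b, a further phosphatase subunit, was higher by 2.64 ± 0.72 and Stbd1 by 2.51 ± 0.58. On HFHS, 6 were lower and 2 higher in hypothalamus than in cortex (9.21% and 14.6% of all genes), among them Ppp1r3g (-3.82), Stbd1 (3.65) and Pgm2l1 (-1.54). In hippocampus on HFHS 8 were lower and 2 higher (10.8% and 13.4% of all genes), among them Stbd1 (2.51), Ppp1r3g (-2.43) and Pgm1 (-1.75). Between hypothalamus and hippocampus, Ppp1r3g (-2.09) and the synthase kinase Gsk3b (-0.55) were lower in hypothalamus on SC, and the phosphatase catalytic subunit Ppp1cc (-0.37) on HFHS. None of the 23 was called between diets or in the contrasts of the diet effect. The values with the smallest p were 1.04 for Pgm1 and -0.46 for Phka2 in hypothalamus, -0.50 for Phka2 and -0.32 for Ppp1cb in hippocampus, and -1.84 for Gsk3a (adjusted p = 0.249) and 0.88 for Epm2aip1 in cortex. Pgm1 was at 280 TPM in hypothalamus HFHS 2, where the median of the group was 97.5, and without that library its value was 0.51 (adjusted p = 0.639).

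The ratio of a member to the astrocyte markers varied between groups to different degrees. Per 1000 TPM of summed astrocyte markers, the group medians of Ppp1r3c lay between 3.15 and 4.59 TPM, those of Ppp1r3d between 0.417 and 0.612 and those of Pygm between 4.91 and 7.85. Those of Gyg ran from 1.54 in cortex HFHS to 10.1 in hippocampus SC, and those of Ugp2 were lowest in cortex HFHS, at 10.00. On this scale the highest group median was outside cortex for all 9 genes, although Ppp1r3d stood at 0.612 in both hypothalamus SC and cortex SC. The astrocyte sum itself had its highest group medians in cortex, so a gene of even TPM such as Gyg has a low ratio there. For Pygm both cortex medians, 5.43 and 4.91, were the lowest of the 6 groups. Ppp1r3c was highest in hippocampus (4.36 on SC and 4.59 on HFHS), followed by cortex SC (4.04). Ugp2 stood at 31.6 in hippocampus SC and 13.6 in cortex SC. Hypothalamus HFHS 2, with the highest Pygm level of any library (159 TPM), also held the highest sum of astrocyte markers outside cortex (18618 TPM).

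**Figure D5:**
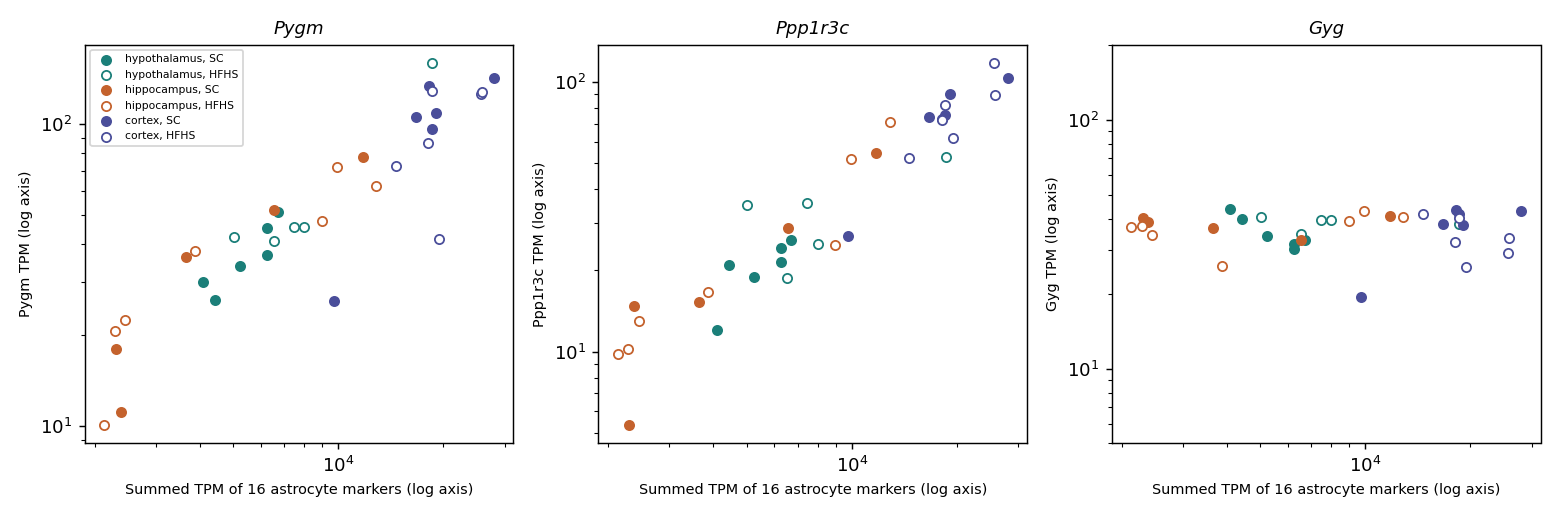
TPM of Pygm, Ppp1r3c and Gyg (y axes, log scale) against the summed TPM of 16 astrocyte markers (x axes, log scale) in the 35 libraries, coloured by region, filled for SC and open for HFHS. Pygm and Ppp1r3c rise with the sum across libraries of all regions, and Gyg stays between 19.3 and 43.8 TPM.

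The genes most like each member were found by the Spearman correlation of log2 CPM over the 35 libraries, among 9805 genes; the libraries share regions, cell makeup and depth, and the correlations are given as a description. Pygm was most like Acsl6 (0.98), Aldh1l1 (0.98), itself one of the astrocyte markers, and Papss2 (0.97). For Ugp2 they were Idi1 (0.98), Pdhx (0.97) and Hadhb (0.97), and for Ppp1r3d Lgi4, S1pr1 and Chst1 (0.97 each). Ppp1r3c was most like Scg3 (0.97), Eva1a (0.96) and Oat (0.96), and Pygb like Arhgef10l, Kifc3 and Slc41a1 (0.95 each). For Gys1 they were Cpt1a (0.93), Hk1 (0.89) and Slc12a4 (0.89), for Gbe1 Pcca (0.93), Etfdh (0.87) and Alas1 (0.86), and for Gyg Hagh (0.87), Ifrd1 (0.86) and Tmem128 (0.84). Epm2a had no close partner: its highest correlations were 0.72 with Dlgap3, 0.71 with Aldh5a1 and 0.71 with Mindy2. After the group means were taken out, the correlation of deviations was 0.96 for Pygm with Acsl6 and 0.40 for Epm2a with Dlgap3. Among the 36 pairs of members, the Spearman correlation ran from 0.04 for Gbe1 and Gyg to 0.95 for Ppp1r3d and Pygm, with a median of 0.55.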

How the data were processed

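RNA of ACSA2-sorted cells was measured in 35 libraries made with the SMART-Seq v4 kit, which keeps no strand. Per the submitters' processing notes, the authors used FastQC and Salmon with build GRCm38; the versions, any trimming and the transcript set were not given in the sources used here. Per the file headers, the deposited files hold estimated counts (not whole numbers) and TPM (transcript abundance scaled by effective length and library) for 140948 transcripts. Of these, 139852 matched GENCODE mouse release M21 by identifier; the 1096 others held 0.214% to 0.535% of the reads and were left out. Deposited estimated counts and TPM were summed per gene, and counts were rounded.

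Counts were tested with edgeR 4.0.16 in R 4.3.3 (filterByExpr, TMM scaling, robust quasi-likelihood test, Benjamini-Hochberg adjustment over all genes tested, threshold 0.05). The 3 diet comparisons used the libraries of 1 region, and the 6 region comparisons and 3 diet contrasts between regions used 1 model of all 6 groups. SE is the size of the log2 fold change over the root of the F statistic. The tests were also run on simulated counts with 200 changed genes, drawn independently for each gene. Those counts did not copy differences in cell makeup, and no result here rests on them. Alternatives were RLE size factors, no filter, DESeq2 1.42.0, length-scaled counts from TPM, leaving out 3 short libraries or each library in turn, other sets of groups and a replicate block. The members and gene lists were chosen with earlier results of these data known. Of the other pathway genes, the text names in each comparison up to 4 past the threshold with the largest change, or those 2 with the smallest p (1 gene that the rule names is not reported here); for each member it names the 3 most similar genes, among genes averaging at least 3 on the log2 CPM scale (prior count 2).

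Replicates are pools that the labels number separately. Labels do not say that a number marks shared animals. The deviations from group means of same-numbered libraries correlated above 0.1 in all 6 pairs only for hypothalamus and cortex on SC (0.108 to 0.531), and the replicate block kept 8 members called there. Promoter entries were found for all 9 members in the RefSeq table.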

Additional observations from a re-analysis of the deposited data

Results flagged for a closer look

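Of 54 sets of a gene and a group, 6 held a library that stood apart from the rest of its group by Dixon's test at the 95% level; chance alone marks about 1 in 20. Pygm in hypothalamus HFHS 2 was at 159 TPM, where the other 4 libraries lay between 41.1 and 45.5. Ppp1r3d in the same library was at 12.5 TPM, where the others lay between 2.58 and 4.50. In hippocampus SC 2, Ugp2 was at 198 TPM (others 101 to 124) and Ppp1r3d at 8.22 TPM (others 0.845 to 2.56). Gyg in cortex SC 6 was at 19.3 TPM (others 37.7 to 43.4), and Gys1 in hypothalamus SC 6 at 6.39 TPM (others 10.1 to 12.2). Astrocyte markers summed highest of their group in hypothalamus HFHS 2 (18618 TPM) and hippocampus SC 2 (11739 TPM), and lowest of their group in cortex SC 6 (9749.8 TPM).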

How the results depend on the processing

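Of 2321 values of members under other settings, 2219 kept their direction and their side of the threshold, 17 lost a call, 13 gained one and 72 changed sign; the cause of these changes was not tested. In the diet comparison of hippocampus, length-scaled counts gave Ugp2 -0.017, and the replicate block gave Ugp2 -0.20, Pygm -0.16 and Ppp1r3c -0.031. Without the short libraries, Ppp1r3c was -0.064 between diets in cortex and Ppp1r3d was 0.017 in hypothalamus against hippocampus on SC; the block gave 0.45 for Ppp1r3d and 0.046 for Pygm there. Without the filter, Gbe1 was 0.0056 in hippocampus against cortex on SC. In the diet contrast of hippocampus against cortex, Pygb was -0.017 on length-scaled counts, -0.15 with the block and -0.010 in a fit of only those groups, and Ppp1r3c was -0.061 with the block.

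Leaving out each library in turn gave these ranges for values that changed sign. Diet in hypothalamus: Pygb -0.14 to 0.40. Diet in hippocampus: Gyg -0.016 to 0.11, Gbe1 -0.24 to 0.12, Ugp2 -0.094 to 0.25, Pygm -0.19 to 0.48, Ppp1r3c -0.084 to 0.91 and Ppp1r3d -0.40 to 0.77. Diet in cortex: Ppp1r3c -0.079 to 0.21. Hippocampus against cortex: Gbe1 on SC -0.22 to 0.13 and Gyg on HFHS -0.18 to 0.0067. Hypothalamus against cortex on HFHS: Gyg -0.15 to 0.032. Hypothalamus against hippocampus on SC: Pygm -0.44 to 0.22, Ppp1r3c -0.51 to 0.31 and Ppp1r3d -0.28 to 0.79; on HFHS: Gys1 -0.26 to 0.32, Gyg -0.043 to 0.072 and Ppp1r3c -0.023 to 0.65. Diet contrasts: for hippocampus against cortex Gys1 -0.16 to 0.29, Pygb -0.28 to 0.39 and Ppp1r3c -0.11 to 0.89; for hypothalamus against hippocampus Ppp1r3c -0.085 to 0.91.

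Members called ranged, with each library left out in turn, from 2 to 5 for hypothalamus against cortex on HFHS (5 without hypothalamus HFHS 2), from 0 to 1 for hypothalamus against hippocampus on SC and from 0 to 1 on HFHS. In hypothalamus against hippocampus on SC, 2 were called (Gbe1 and Ugp2) with DESeq2, without the short libraries, with the replicate block and in a fit of only those groups; on HFHS the block called 2, Pygb (1.17) and Ppp1r3d (1.38), and against cortex it added Ppp1r3d (-1.30) in hypothalamus on HFHS. Calls of Gyg in hippocampus against cortex on SC were lost without the filter (adjusted p = 0.0801) and in a fit of only those groups (0.0671), where Epm2a on HFHS was lost too (0.0552). No member was called between diets under any setting.

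All genes called between diets numbered 112 with DESeq2, 8 without the short libraries and 1 in 1 model of all groups for hypothalamus; 13 with DESeq2 for hippocampus; and 28 with RLE size factors, 32 without the filter, 442 with DESeq2, 16 on length-scaled counts, 515 without the short libraries and 412 with the block for cortex. The diet contrasts gave 121 (DESeq2), 475 (without the short libraries) and 299 (block) for hypothalamus against cortex, 24 (DESeq2) for hippocampus against cortex and 4 (DESeq2) for hypothalamus against hippocampus. Hypothalamus against hippocampus gave 3783 on SC in a fit of only those groups, and on HFHS 2163 (DESeq2), 2417 (without the short libraries) and 2597 (block). With each library left out the counts ran from 0 to 8 for diet in hypothalamus, 0 to 141 in cortex, 0 to 180 and 0 to 1 for the contrasts of hypothalamus and of hippocampus with cortex, and 1298 to 2184 on SC and 797 to 1401 on HFHS for hypothalamus against hippocampus. Same-numbered libraries of both diets correlated above 0.1 in 5 of 6 pairs in cortex (median 0.50; 8 of 12 libraries correlated best with their own number) and in 4 of 5 in hippocampus (median 0.51; 6 of 10), a hint from the data that the labels do not state.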
